A study of Mus musculus with 24 samples.

Results

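The maternal-fetal interface (MFI), which is the decidua together with the placenta, of mice that lack C1qtnf6 was compared between gd14.5 and gd10.5, where gd is the gestation day. C1qtnf6 encodes CTRP6, a secreted protein of the C1q/TNF-related family. The comparison held the 6 C1qtnf6-KO libraries of these stages, 3 from gd10.5 and 3 from gd14.5, out of 24 libraries in the series, and they were chosen by labelled genotype and stage. The KO mice were homozygous for a CRISPR deletion of exons of C1qtnf6 on the C57BL/6 background, and all 6 libraries carried it. The 6 WT libraries of the same stages, which carried no deletion, were used to ask how much of the stage change they repeat. The labels name no treatment for any of these groups. Bulk mRNA-seq was made from each sample, and no label names a litter, dam, date or sequencing run. Nothing says that the 3 libraries of a group came from separate dams, so the p-values measure only the spread between these libraries, of which an unknown share may be technical.

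In mice the decidua forms from the stroma of the uterus after implantation, and uterine natural killer (NK) cells with granules of perforin and granzymes gather in it around midgestation and decline later. The placenta, built by trophoblast of the embryo, has an outer layer of giant cells, a junctional zone of spongiotrophoblast and glycogen cells, and a labyrinth where maternal and fetal blood exchange gases and nutrients. The layers are known for their hormones, since giant cells of the early placenta make placental lactogen I, later ones make placental lactogen II, and the junctional zone makes other members of the prolactin family and the pregnancy-specific glycoproteins (PSGs). Blood of the embryo begins with primitive red cells from the yolk sac, which use embryonic globins, and moves on to definitive red cells, which use adult globins.

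The 6 KO libraries held between 23144078 and 37383108 counted reads, and the 6 WT libraries between 20975717 and 36378830. Markers of both sides of the interface were present in all 6 KO libraries, with the decidual prolactin Prl8a2 at 2034 CPM or more (CPM are read counts scaled to the normalized library total) and the spongiotrophoblast gene Tpbpa at 686 CPM or more. One library stood apart. KO replicate 2 of gd10.5 had a mean Pearson correlation of 0.960 with the other libraries of its group and of 0.969 with the KO libraries of gd14.5, whereas the other 2 KO libraries of gd10.5 had 0.976 and 0.972 within their group and 0.918 and 0.912 with gd14.5 (log2 CPM over genes). It also held 74.4 CPM of 4 Y-linked transcripts in sum beside 962 CPM of Xist, the RNA that coats the inactive X chromosome, while replicates 1 and 3 held at most 0.331 CPM of the Y-linked transcripts. Libraries of gd14.5 differed in these markers as well, since KO replicate 3 held 183 CPM of the Y-linked transcripts and 164 CPM of Xist, against at most 0.605 CPM and at least 1926 CPM in replicates 1 and 2, and WT replicate 3 of gd14.5 held 180.2 and 178 CPM. The label of KO replicate 2 of gd10.5 was kept, the counts of each gene list are given with it and without it, and the value of a single gene is with it unless stated. Among the WT libraries, replicate 1 of gd10.5 stood apart in the genes of the yolk sac list described below.

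The place of each KO library along the WT stage change was measured over the 3952 genes that differed between the WT stages, on a scale where 0 is the WT mean at gd10.5 and 1 the WT mean at gd14.5. The median position of the gd10.5 KO replicates 1, 2 and 3 was -0.0915, 0.490 and -0.112. The gd14.5 KO replicates lay at 0.911, 0.946 and 1.06. Replicates 1 and 3 of gd10.5 thus stood slightly on the early side of the WT mean, and replicate 2 lay about midway. The WT replicates 1, 2 and 3 of gd10.5 themselves lay at -0.00941, -0.0514 and 0.0772. In replicate 2, 22.9% of the genes were below 0.25, 57.3% between 0.25 and 0.75 and 19.9% above 0.75, against 88.6% and 91.4% below 0.25 in replicates 1 and 3. The position of replicate 2 differed between gene groups, from -0.235 for red cell genes and -0.0598 for cell division genes to 0.676 for genes of the decidual stroma.

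**Figure D1:**
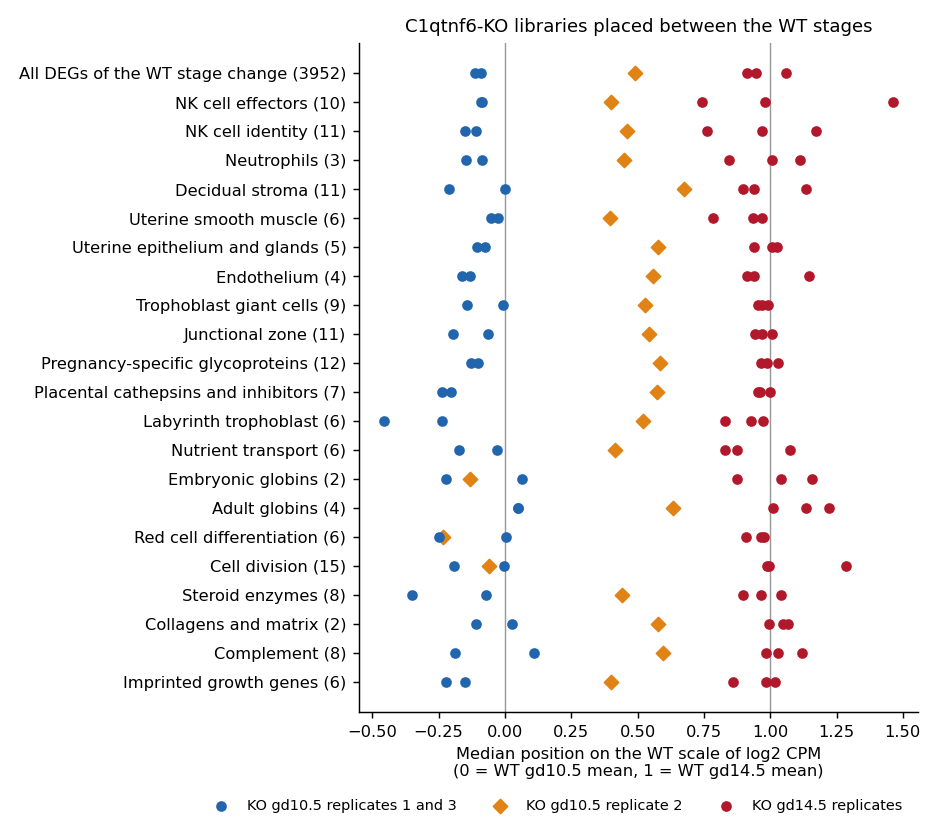
Median position of each of the 6 KO libraries on the WT scale of log2 CPM (x axis, 0 is the WT mean at gd10.5 and 1 the WT mean at gd14.5), over all WT DEGs and over the WT DEGs of each gene list, whose number stands in brackets, with 1 point per library and a diamond for replicate 2 of gd10.5. Replicate 2 of the gd10.5 KO libraries lies at 0.490 over all 3952 genes, and its lists range from the gd10.5 end (cell division, embryonic globins and red cell genes) to 0.676 (decidual stroma).

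C1qtnf6 itself (chr15:78523346-78531416 in GRCm38, minus strand) was checked first. It was measured at 1.07, 0.797 and 1.03 CPM in the KO libraries of gd10.5 and at 0.403, 0.442 and 0.493 CPM in those of gd14.5. The WT libraries held 161, 164 and 177 CPM at gd10.5 and 118, 131 and 139.6 CPM at gd14.5. The KO means were thus 0.577% and 0.345% of the WT means, and no library went against its label. The remaining 12 to 28 reads per KO library fell between the stages (log2 fold change -1.12 ± 0.25 (SE), adjusted p = 0.0168), and in WT the log2 fold change was -0.37 ± 0.08 (adjusted p = 0.00514).

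Without C1qtnf6, the interface changed widely between the stages. Of 17657 genes tested, 2936 (16.6%) were differentially expressed genes (DEGs), with a Benjamini-Hochberg adjusted p under 0.05 in edgeR's quasi-likelihood test and a change over 2-fold, which is a log2 fold change over 1 in either direction. Of these DEGs, 1252 (7.09% of the genes tested) were higher at gd14.5 and 1684 (9.54%) were lower. The change was over 4-fold for 924 DEGs. The median log2 fold change over all genes tested was 0.01. The 3 libraries of one stage lay wholly on one side of the other 3 for 53.9% of the genes, with gd14.5 wholly above for 28.5% and wholly below for 25.4%. Without replicate 2 of gd10.5, 4712 of 18183 genes (25.9%) were DEGs, 2184 (12%) higher and 2528 (13.9%) lower, and 2891 of the 2936 DEGs were called again. The count was 1475 without replicate 1 of gd10.5, 2034 without replicate 3, and 1726, 1199 and 1245 without replicates 1, 2 and 3 of gd14.5. Where a list had more members than were tested, the others had too few reads or had no entry in the table. The counts of each list are to be read beside the shares over all genes tested, 7.09% higher and 9.54% lower. Without replicate 2 these shares were 12% and 13.9%, and in WT they were 10.1% and 11.7%. In every fold change below, a positive value is higher at gd14.5, ± gives the SE, and p is adjusted over all genes of that fit.

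The 10 strongest rises among well-expressed genes included Gkn2, Cts6, Prl8a8, Psg26, Psg16, Prl3a1, Psg23, Ceacam12 and Fbln7. Among them were 2 genes of the prolactin family, 3 pregnancy-specific glycoproteins and Ceacam12, of the same wider family as the PSGs, and a placental cathepsin. Cts6 was at 7.40, 7.53 and 6.22 CPM at gd10.5 and at 437, 537 and 867 CPM at gd14.5, which gives 6.44 ± 0.32 on the log2 scale (adjusted p = 0.00223). Prl3a1 went from 2.10, 1.99 and 2.14 to 58.9, 74.9 and 102 CPM (5.23 ± 0.24, adjusted p = 0.00223). For these 2 genes, replicate 2 of gd10.5 was level with the other libraries of its stage. Prl8a8 behaved otherwise, with 6.97, 216 and 4.31 CPM at gd10.5 and 3938, 3766 and 3914 CPM at gd14.5, and its log2 fold change was 5.68 ± 1.60 with replicate 2 and 9.42 ± 0.28 without it. In 8 of the 10 genes replicate 2 lay more than 2-fold above the nearer of the other gd10.5 libraries. All 10 genes were also DEGs in the same direction in WT.

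The 10 strongest falls included Krt84, Serpinf2, Prl3d2, Slc2a2, Hbb-bh1, Prl3d1, Car7, Cts7 and Fgb. Krt84, a hair-type keratin, had 24.5, 2.75 and 50.8 CPM at gd10.5 and 0.0336, 0.138 and 0.0411 CPM at gd14.5, where the libraries were at or near the detection limit of 3 reads, which is 0.0829 to 0.123 CPM in the KO libraries. Slc2a2, a glucose transporter of liver, gut and yolk sac, was at 35.2, 2.95 and 43.0 CPM at gd10.5 and at most at 0.370 CPM at gd14.5. The log2 fold change of Slc2a2 was -6.34 ± 1.09 (adjusted p = 0.00889), and -6.86 ± 0.18 without replicate 2. In 8 of the 10 genes replicate 2 was more than 2-fold lower than both other gd10.5 libraries. Of the 10 falls, 7 were DEGs in WT too, and those that were not included Serpinf2 and Fgb. For 2 of the 7 the WT difference came with 1 high library, replicate 1 of gd10.5. Slc2a2 was at 28.7, 0.453 and 0.847 CPM in the WT libraries of gd10.5 and 0.313, 0.388 and 0.498 CPM in those of gd14.5, with overlapping stages, and Car7 was at 21.1, 0.680 and 0.446 and 0.313, 0.388 and 0.317 CPM. Serpinf2 and Fgb encode plasma proteins, alpha2-antiplasmin and the fibrinogen beta chain.

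**Figure D2:**
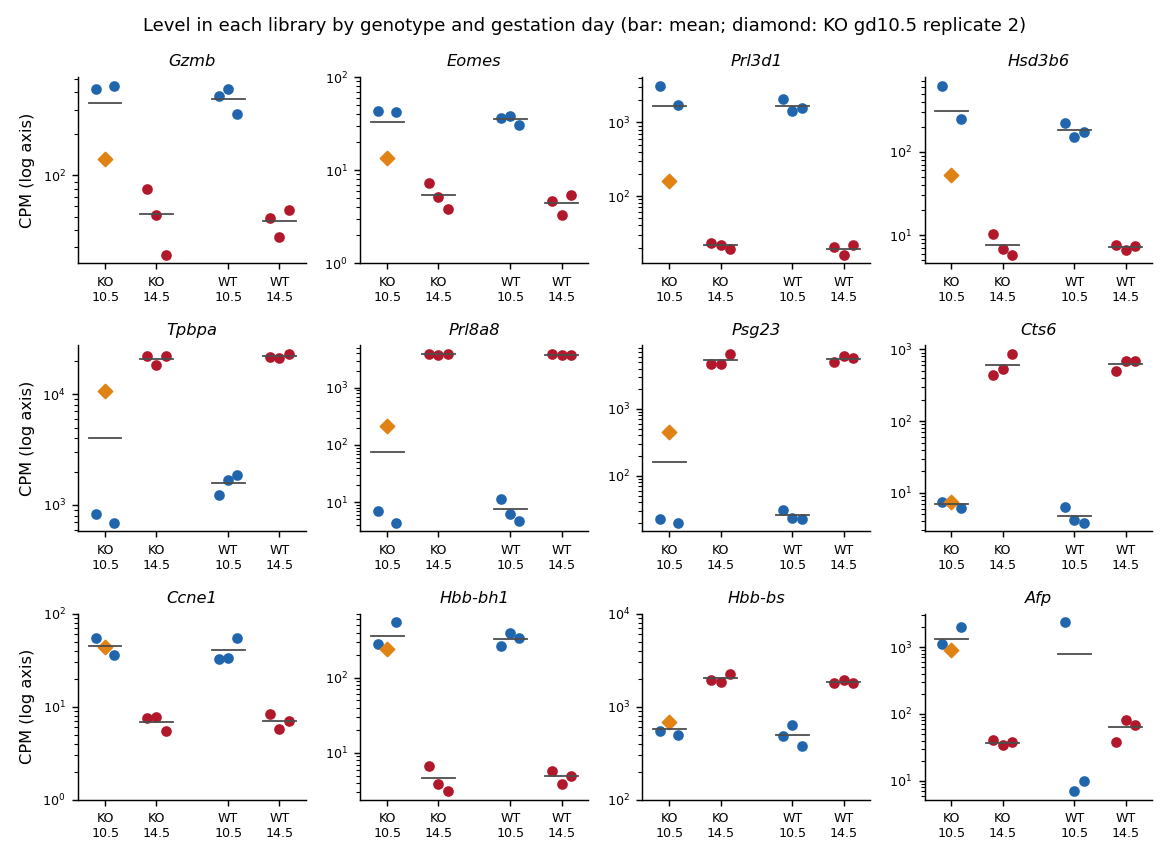
CPM (log axis) of 12 genes in the 6 KO and 6 WT libraries of gd10.5 and gd14.5, with 1 point per library, a bar for the mean of the 3 libraries and a diamond for replicate 2 of the gd10.5 KO libraries. The diamond lies toward gd14.5 in genes such as Gzmb, Prl3d1 and Tpbpa, and with the other gd10.5 libraries in Cts6 (6.22 to 7.53 CPM), Ccne1, Hbb-bh1 and Afp, and for Afp only 1 of the 3 WT libraries of gd10.5 is high.

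The effector genes of NK cells fell together. All 10 members, which are perforin (Prf1), the granzymes Gzma to Gzmg, Fcrl6 and Nkg7, were lower at gd14.5, with a median log2 fold change of -2.16, and in each of them the 3 gd14.5 libraries lay below the 3 gd10.5 libraries. Among all genes tested, gd14.5 lay wholly below for 25.4%, and 9.54% were DEGs lower at gd14.5. Prf1, the pore-forming protein of the granules, was at 589, 233 and 514 CPM at gd10.5 and 121, 94.0 and 43.7 CPM at gd14.5 (-2.38 ± 0.47, adjusted p = 0.0126). Gzmb, a protease that triggers apoptosis, was at 422, 131 and 449 and then 79.2, 51.0 and 26.4 CPM (-2.68 ± 0.57, adjusted p = 0.0151). Gzmd, one of the granzymes of the uterine cells, was at 1875, 1088 and 1807 and then 625, 458 and 204 CPM (-1.90 ± 0.43, adjusted p = 0.0183). Replicate 2 of gd10.5 was the lowest of its stage in all 3 genes, and above each gd14.5 library. Gzma was nearly absent at gd14.5, with 0.168, 0.111 and 0.123 CPM after 16.7, 0.957 and 11.04 CPM at gd10.5. Without replicate 2 the 10 genes remained called and the median was -2.44, with Prf1 at -2.68, Gzmb at -3.06 and Gzmd at -2.10, and in WT all 10 fell with a median of -2.20. Gzmb to Gzmg lie together on chromosome 14 and are close paralogs, and reads that fit more than 1 place were not counted, so their levels are uncertain against each other. In bulk tissue, fewer NK cells and less RNA per cell cannot be told apart.

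Receptors and regulators of NK cells were mostly lower too. Of 15 genes, 9 were tested, 7 fell, none rose and the median was -2.51. Klri2 and Klrk1, receptors of the NK gene complex, were at 2.69, 0.518 and 3.39 and 2.69, 1.36 and 3.35 CPM at gd10.5. At gd14.5 they were at 0.336, 0.249 and 0.0411 and 0.705, 0.332 and 0.247 CPM (-3.32 ± 0.82, adjusted p = 0.0224, and -2.51 ± 0.49, adjusted p = 0.0120). Eomes, a transcription factor of NK cells that trophoblast stem cells also express, was at 43.8, 13.5 and 41.9 and 7.26, 5.20 and 3.78 CPM (-2.61 ± 0.48, adjusted p = 0.0103). Itga2 and Il2rb did not pass as DEGs, with log2 fold changes of -0.59 and -0.86. Without replicate 2, 12 members were tested, 10 fell and 1 rose, and the same counts were found in WT.

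Genes of the decidual stroma were lower at gd14.5 for 7 of 13 members and higher for 1, with a median of -1.10. Bmp2, a growth factor that drives decidualization, was at 76.5, 7.73 and 72.4 CPM at gd10.5 and 5.61, 4.67 and 4.56 CPM at gd14.5 (-3.41 ± 0.79, adjusted p = 0.0186). Angpt2, an angiopoietin that loosens vessels, was at 827, 233 and 809.9 and 152, 139.5 and 114 CPM (-2.21 ± 0.47, adjusted p = 0.0145). Hand2, a progesterone-dependent regulator of the stroma, was at 154, 54.1 and 191 and 43.1, 47.0 and 34.2 CPM (-1.69 ± 0.43, adjusted p = 0.0253). In all 3 genes, replicate 2 of gd10.5 stood far nearer to the gd14.5 libraries than to its own group. Rora was the member that rose (1.57 ± 0.34, adjusted p = 0.0151). The decidual prolactin Prl8a2, among the 10 genes with the most reads at gd10.5, was at 3104, 2034 and 11117 CPM at gd10.5 and 2318, 2883 and 2418 CPM at gd14.5 and did not pass (-1.10 ± 0.62, adjusted p = 0.201), and its gd10.5 libraries spread from 2034 to 11117 CPM. Without replicate 2, 10 members fell and 1 rose, as in WT, and the log2 fold changes of Bmp2, Angpt2 and Hand2 were -3.91, -2.60 and -2.06.

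Enzymes of steroid synthesis fell for 7 of 10 tested members and rose for none, with a median of -1.89. Star, which carries cholesterol into mitochondria, was at 1225, 188 and 693 CPM at gd10.5 and 76.0, 62.7 and 79.9 CPM at gd14.5 (-3.27 ± 0.63, adjusted p = 0.0116). Hsd3b6, which makes progesterone from pregnenolone, was at 622, 53.3 and 245 and 10.3, 6.83 and 5.84 CPM (-5.33 ± 0.91, adjusted p = 0.00876). Akr1c18, which breaks progesterone down, was at 139.8, 46.8 and 126 and 6.25, 7.85 and 2.67 CPM (-4.21 ± 0.55, adjusted p = 0.00482). Synthesis and breakdown enzymes of progesterone thus fell in the same libraries. Without replicate 2, 8 of 11 fell and 1 rose, with Star at -3.72 and Akr1c18 at -4.54, and in WT 8 of 11 fell and none rose.

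Of 11 genes of the trophoblast giant cells, most of them hormones of the prolactin family, 7 fell and 1 rose, with a median of -1.90. Prl3d1, placental lactogen I (chr13:27094190-27100258, plus strand), was at 3159.7, 158 and 1726 CPM at gd10.5 and 23.1, 21.9 and 19.3 CPM at gd14.5 (-6.30 ± 1.07, adjusted p = 0.00864). Prl3b1, placental lactogen II, was at 1313, 6845 and 1535 and 10997, 9135 and 11263 CPM, and with replicate 2 its difference did not pass (1.69 ± 0.66, adjusted p = 0.0840). Without replicate 2 Prl3b1 was a DEG (2.88 ± 0.19, adjusted p = 1.02e-05), and in WT it was a DEG as well (1.66 ± 0.15, adjusted p = 5.36e-05). Replicate 2 lay between the stages in both lactogens, far below the other gd10.5 libraries in the early one and far above them in the late one. The proliferins Prl2c2 and Prl2c3 fell (-1.85 ± 0.39, adjusted p = 0.0147, and -1.90 ± 0.34, adjusted p = 0.00996), and so did Prl7a1 (-2.89 ± 0.35, adjusted p = 0.00433). The cathepsin Ctsq, of labyrinthine giant cells, rose from 49.5, 355 and 45.4 to 2118, 2169.7 and 2798 CPM (3.97 ± 0.88, adjusted p = 0.0169). The counts in WT were the same, 2 of 11 higher and 7 lower, as those of the KO libraries without replicate 2.

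Of 18 genes of the junctional zone, 5 rose and 1 fell, and 12 did not pass, with a median of 1.89. Tpbpa and Tpbpb, which mark spongiotrophoblast, were at 828, 10621 and 686 and 46.8, 1299 and 38.0 CPM at gd10.5. At gd14.5 they were at 22270.0, 18205 and 21987 and 5775, 5177 and 6850.3 CPM. Tpbpa took the largest share of reads of any gene in the KO libraries of gd14.5, and in each gene replicate 2 stood between the stages. Neither gene passed with replicate 2 (2.36 ± 1.07, adjusted p = 0.124, and 3.68 ± 1.39, adjusted p = 0.0771). Both were DEGs without it (4.78 ± 0.22, adjusted p = 2.39e-06, and 7.13 ± 0.24, adjusted p = 5.62e-07). Prl8a6 rose from 19.95, 49.8 and 12.3 to 566, 513 and 592 CPM (4.35 ± 0.53, adjusted p = 0.00417), and Prl6a1 fell from 86.8, 89.3 and 113 to 26.2, 21.5 and 19.53 CPM (-2.11 ± 0.16, adjusted p = 0.00223). Without replicate 2, 12 members rose and 2 fell, and in WT 10 rose and 1 fell. The summed level of the list was 3396, 22667 and 2651 CPM at gd10.5 and 53330.0, 45373 and 53879 CPM at gd14.5.

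Pregnancy-specific glycoproteins, secreted proteins of trophoblast encoded side by side on chromosome 7, had the highest median among the lists, 3.69 over 13 tested members, yet only 3 rose and none fell. In 11 of 13 the gd14.5 libraries lay wholly above those of gd10.5, against 28.5% of all genes tested. Psg16 was at 33.2, 205 and 26.1 CPM at gd10.5 and 3117, 3453 and 5432 CPM at gd14.5 (5.51 ± 0.94, adjusted p = 0.00889). Psg21, among the 10 genes with the most reads at gd14.5, was at 29.5, 1107 and 26.4 and 8916, 8064 and 11408 CPM and did not pass (4.61 ± 1.54, adjusted p = 0.0553). Psg23 rose (5.03 ± 1.35, adjusted p = 0.0291). In Psg16, Psg21 and Psg23, replicate 2 of gd10.5 stood many-fold above replicates 1 and 3 and below each gd14.5 library. Without replicate 2, 10 rose and 1 fell with a median of 7.61, and in WT 10 rose and 2 fell with a median of 6.31. As these genes are close paralogs, their single levels are uncertain.

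Placental cathepsins, a cluster of proteases on chromosome 13, went in both directions. Of 9 tested members, inhibitors included, 2 rose, 1 fell and 6 did not pass, while 7.09% of all genes tested rose and 9.54% fell as DEGs. Cts6 and Ctsq rose, as given above, and Cts7 fell from 46.0, 4.03 and 17.1 to 0.336, 0.304 and 0.288 CPM (-6.16 ± 1.00, adjusted p = 0.00785). Cts3 and Ctsm were at 11.9, 633 and 14.1 and 4.67, 458 and 6.52 CPM at gd10.5, and at 3835, 4085 and 4562 and 1511, 1371 and 1523 CPM at gd14.5. With replicate 2 they did not pass (4.24 ± 1.57, adjusted p = 0.0733, and 3.23 ± 1.64, adjusted p = 0.161). Replicate 2 was many-fold above the other gd10.5 libraries in both, and level with them in Cts6. Without it 6 members rose and 1 fell, as in WT.

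Of 12 tested genes of the labyrinth 4 rose, none fell and 8 did not pass (median 0.83), and of 16 nutrient transport genes 5 rose, none fell and 11 did not pass (median 0.48). The shares over all genes tested were 7.09% DEGs higher and 9.54% DEGs lower. Gjb2, a connexin that joins the syncytial layers, was at 188, 487 and 174 CPM at gd10.5 and 760.3, 901 and 983 CPM at gd14.5 (1.64 ± 0.41, adjusted p = 0.0241). Tfrc, the transferrin receptor that takes up maternal iron, was at 309.6, 965 and 285 and 1417, 1445 and 1817 CPM (1.58 ± 0.49, adjusted p = 0.0436). Slc40a1, the iron exporter ferroportin, was at 72.8, 129.8 and 70.1 and 246, 289 and 326 CPM (1.66 ± 0.26, adjusted p = 0.00714). Genes for iron entry and iron exit both rose. The fatty acid carrier Cd36 rose (2.24 ± 0.43, adjusted p = 0.0118), as did the amino acid transporter Slc38a4 (1.48 ± 0.47, adjusted p = 0.0467). The glucose transporter Slc2a3 was at 242, 53.5 and 279 CPM at gd10.5 and 66.2, 81.2 and 76.4 CPM at gd14.5, and did not pass (-1.37 ± 0.54, adjusted p = 0.0874). Without replicate 2, 8 labyrinth genes rose and none fell, and 6 transport genes rose and 2 fell, with Gjb2 at 2.28 and Slc2a3 at -1.81, and in WT 6 of each list rose and none fell.

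Of the globins, 2 of 3 embryonic genes were lower and all 4 adult genes higher at gd14.5. The 120 bases upstream of the RefSeq start are shown for 5 globins, all but Hbb-bh1 and Hba-a2, and for both placental lactogens. They were chosen since each set holds genes that were higher at gd10.5 and genes that were higher at gd14.5. Of the embryonic globins shown only Hba-x was a DEG, and of the lactogens only Prl3d1 was a DEG with all 6 libraries. The sequences are from RefSeq on GRCm38.p6, written 5′ to 3′ on the strand of the gene, and capitals mark, on either strand, the motif CACCC of Krüppel-like factors, the CCAAT box, the GATA factor motif GATAA and the TATA box as TATAA, as the shifted letters ATAAA or as the longer TATATA.
Hba-x, chr11:32276480-32276599, plus strand: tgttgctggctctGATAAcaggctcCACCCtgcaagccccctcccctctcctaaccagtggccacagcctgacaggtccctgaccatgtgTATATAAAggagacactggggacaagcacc
Hbb-y, chr7:103853208-103853327, minus strand: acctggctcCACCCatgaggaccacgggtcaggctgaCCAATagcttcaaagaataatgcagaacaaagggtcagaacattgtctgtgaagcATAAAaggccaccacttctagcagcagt
Hba-a1, chr11:32283552-32283671, plus strand: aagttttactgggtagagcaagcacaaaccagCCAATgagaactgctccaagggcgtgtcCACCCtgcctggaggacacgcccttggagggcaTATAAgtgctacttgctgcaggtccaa
Hbb-bs, chr7:103827929-103828048, minus strand: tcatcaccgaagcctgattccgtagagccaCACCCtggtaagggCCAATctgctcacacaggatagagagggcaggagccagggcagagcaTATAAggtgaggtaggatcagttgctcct
Hbb-bt, chr7:103813924-103814043, minus strand: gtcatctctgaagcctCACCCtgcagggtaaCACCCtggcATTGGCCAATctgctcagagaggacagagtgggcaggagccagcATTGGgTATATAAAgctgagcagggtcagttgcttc
Prl3d1, chr13:27094069-27094188, plus strand: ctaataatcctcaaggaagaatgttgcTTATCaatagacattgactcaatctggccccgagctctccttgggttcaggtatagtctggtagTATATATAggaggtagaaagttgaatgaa
Prl3b1, chr13:27242310-27242429, plus strand: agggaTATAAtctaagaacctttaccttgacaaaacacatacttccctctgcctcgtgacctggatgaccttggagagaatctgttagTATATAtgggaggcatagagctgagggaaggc
The 3 forms of the TATA box overlap each other. Among 32851 such windows of all RefSeq starts, 31.7% held CACCC, 21.3% held CCAAT, 10.499% held GATAA, 11.8% held TATAA, 20.2% held ATAAA and 2.51% held TATATA. All 5 globin windows held CACCC, and 4 of them, all but that of Hba-x, held CCAAT. Both lactogen windows held TATATA and neither held CACCC or CCAAT. Prl3d1 was higher at gd10.5 and Prl3b1 at gd14.5, but the difference of Prl3b1 did not pass with replicate 2 of gd10.5. A match is a description of the letters and not of a bound factor.

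Of the 3 embryonic globins, Hba-x and Hbb-bh1 fell. Hba-x, the zeta chain, was at 267, 532 and 519 CPM at gd10.5 and 83.05, 60.4 and 45.4 CPM at gd14.5 (-2.81 ± 0.34, adjusted p = 0.00416). Hbb-bh1 was at 284, 243 and 552 and 6.75, 3.87 and 3.08 CPM (-6.30 ± 0.48, adjusted p = 0.00223). Hbb-y, the epsilon chain, was at 431, 2202 and 820.0 and 894, 600.2 and 344 CPM, with overlapping stages, and did not pass (-0.91 ± 0.62, adjusted p = 0.280). Of the embryonic beta-like chains, Hbb-bh1 was thus low in all gd14.5 libraries, while for Hbb-y 2 of the 3 gd14.5 libraries lay within the range of gd10.5 and the other lay below it. All 4 adult globins rose, with a median of 1.65. Hbb-bs was at 549.9, 681 and 499 and 1925, 1857 and 2269 CPM (1.80 ± 0.19, adjusted p = 0.00326), and Hba-a1 at 263, 633 and 302 and 1039.9, 928 and 1084 CPM (1.34 ± 0.34, adjusted p = 0.0242). Hba-a1 and Hba-a2 are near-identical copies, so the split of reads between them is uncertain.

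The embryonic share of all beta-like globin reads (Hbb-y and Hbb-bh1 over these and Hbb-bs and Hbb-bt) was 54.9%, 75.7% and 72.0% in the gd10.5 KO libraries and 29.2%, 22.4% and 11.8% at gd14.5, and the exact 95% binomial intervals, which cover counting error only, were as narrow as 54.3% to 55.4% for the first library. The stages did not overlap. Replicate 2 of gd10.5, between the stages in most genes, had the highest embryonic share of all 6. In WT the shares were 58.5%, 61.5% and 70.0% at gd10.5 and 29.2%, 18.9% and 25.1% at gd14.5. Without replicate 2 and in WT the same counts were found, 2 embryonic globins lower and 4 adult globins higher.

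**Figure D3:**
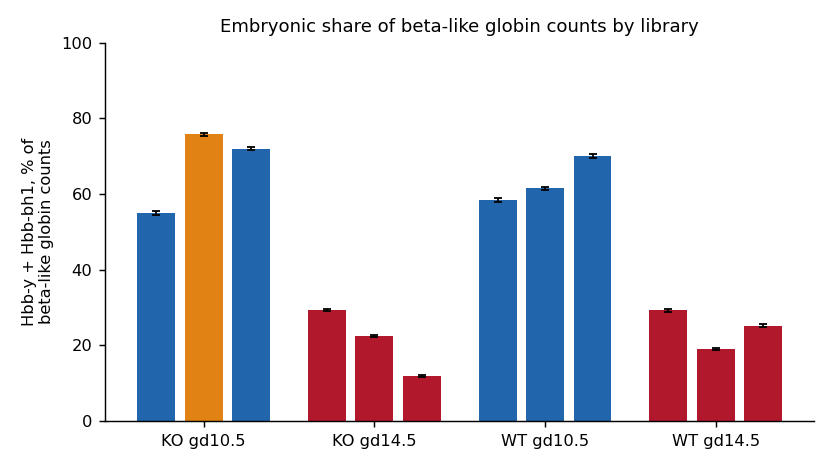
Embryonic share of beta-like globin reads (percent, y axis from 0) with 1 bar per library for the KO and WT groups, in replicate order, with exact 95% binomial intervals as error bars and replicate 2 of the gd10.5 KO libraries in orange. The KO shares are 54.9% to 75.7% at gd10.5 and 11.8% to 29.2% at gd14.5, and replicate 2 of gd10.5 has the highest.

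Genes of red cell differentiation fell for 5 of 9 tested members and rose for 1. Klf1, a master regulator of red cells, was at 2.65, 2.31 and 4.38 and 0.336, 0.636 and 0.781 CPM (-2.42 ± 0.39, adjusted p = 0.00775). Epb42, of the membrane skeleton, was at 3.25, 11.80 and 7.18 CPM at gd10.5 and 1.48, 1.44 and 1.56 CPM at gd14.5 (-2.31 ± 0.45, adjusted p = 0.0121). In Epb42 replicate 2 was the highest library, on the far side from gd14.5. Gata1, a factor of red cells and megakaryocytes, rose from 2.85, 6.98 and 3.90 to 10.7, 13.2 and 12.2 CPM (1.39 ± 0.32, adjusted p = 0.0182). The counts were the same without replicate 2 and in WT.

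Genes of the yolk sac endoderm had the lowest median of all lists, -5.15, with 11 of 14 members lower at gd14.5 and none higher. Apob, the main protein of lipoproteins, was at 716, 218 and 1099 CPM at gd10.5 and 21.8, 14.51 and 18.0 CPM at gd14.5 (-5.24 ± 0.63, adjusted p = 0.00403). Apoa1, of high-density lipoproteins, was at 209, 77.2 and 314 and 4.54, 4.15 and 5.06 CPM (-5.46 ± 0.55, adjusted p = 0.00302). Amn, the partner of the endocytic receptor cubilin, was at 17.7, 3.87 and 23.9 and 0.235, 0.138 and 0.123 CPM (-6.48 ± 0.84, adjusted p = 0.00474). All 3 gd10.5 KO libraries were above all gd14.5 libraries in these genes, with replicate 2 the lowest of its stage. In WT no member passed, of 12 tested (median -3.65). The summed level of the list was 2978, 1658 and 4870 CPM at gd10.5 and 299, 319 and 377 CPM at gd14.5 in KO. In WT it was 4948, 67.3 and 62.4 CPM at gd10.5 and 324, 495 and 370 CPM at gd14.5. Thus 4 of the 6 gd10.5 libraries held these transcripts at a high level and WT replicates 2 and 3 did not. The yolk sac is not part of the labelled tissue, and the part that its presence in a sample had in these differences was not tested. Without KO replicate 2, 12 members fell, with Apob at -5.65, and 1 rose. That member was Alb, serum albumin, at 0.158, 17.6 and 0.920 CPM in gd10.5 replicates 1, 2 and 3 and 1.11, 1.77 and 1.77 CPM at gd14.5, so replicate 2 was its highest library by far.

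**Figure D4:**
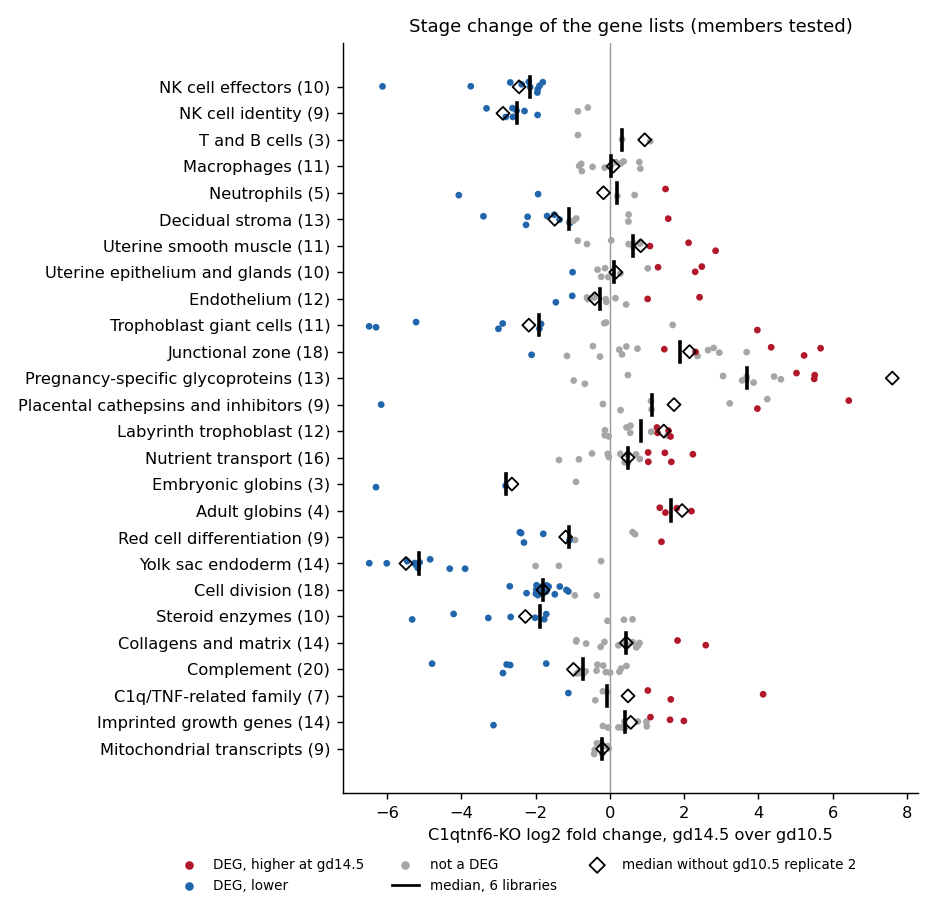
Log2 fold change (gd14.5 over gd10.5, x axis) of each tested member of each gene list in the 6 KO libraries, with 1 point per gene, red and blue for DEGs higher and lower at gd14.5 and grey for genes that were not DEGs, a bar for the median of the list and an open diamond for its median without replicate 2 of gd10.5. The yolk sac list lies lowest in KO (-5.15), and the pregnancy-specific glycoproteins lie highest, at 3.69 with replicate 2 and 7.61 without it.

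Cell division genes fell for 16 of 18 members, none rose, and the median was -1.80. Mki67, a marker of cycling cells, was at 213, 206 and 187 CPM at gd10.5 and 65.5, 71.5 and 50.0 CPM at gd14.5 (-1.70 ± 0.15, adjusted p = 0.00252). Ccne1, the cyclin of entry into S phase, was at 54.3, 44.2 and 36.2 and 7.63, 7.68 and 5.47 CPM (-2.70 ± 0.20, adjusted p = 0.00223). Plk1, a mitotic kinase, was at 36.2, 26.2 and 28.3 and 7.39, 7.49 and 4.24 CPM (-2.24 ± 0.25, adjusted p = 0.00361). In these genes replicate 2 lay among the other gd10.5 libraries, or just below them in Plk1. Pcna and E2f8 missed the fold threshold (-0.94 ± 0.09, adjusted p = 0.00279, and -0.35 ± 0.11, adjusted p = 0.0469). Mki67, Pcna and E2f8 were picked with their values in view. Without replicate 2 the counts were the same and the median was also -1.80, and in WT 15 fell with a median of -1.57.

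Complement genes fell for 5 of 20 tested members and rose for none (median -0.74), beside 9.54% of all genes tested that were DEGs lower. Cfi, the protease that inactivates C3b, was at 13.02, 5.54 and 24.6 CPM at gd10.5 and 0.437, 0.580 and 0.535 CPM at gd14.5 (-4.79 ± 0.61, adjusted p = 0.00458). C4b and Cfb, of the classical and alternative pathways, fell (-2.88 ± 0.56, adjusted p = 0.0120, and -2.78 ± 0.38, adjusted p = 0.00522), as did C3 (-1.71 ± 0.45, adjusted p = 0.0264), which was picked with its values in view. Activating components and regulators of complement were thus both among the 5. Cfi moved with the yolk sac genes in WT, where it did not pass (-3.26 ± 1.54, adjusted p = 0.105). Without replicate 2, 10 members of 21 fell, beside 13.9% of all genes tested, and in WT 8 of 21 fell, beside 11.7%.

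In the family of the deleted gene, 3 of 7 tested C1q/TNF-related genes rose and C1qtnf6 itself fell. Of all genes tested, 7.09% were DEGs higher and 9.54% DEGs lower. C1qtnf1 was at 111, 147 and 163 CPM at gd10.5 and 262, 284 and 313 CPM at gd14.5 (1.02 ± 0.16, adjusted p = 0.00714). C1qtnf3 was at 0.0792, 0.518 and 0.147 and 5.38, 4.34 and 3.45 CPM (4.13 ± 0.54, adjusted p = 0.00482), and C1qtnf7 at 0.238, 0.319 and 0.0736 and 0.437, 0.691 and 0.863 CPM (1.64 ± 0.50, adjusted p = 0.0419). The stages did not overlap in any of the 3, as for 53.9% of all genes tested, and C1qtnf7 lay near the detection limit at gd10.5. In WT, C1qtnf3 was a DEG (5.32 ± 0.35, adjusted p = 1.19e-05), C1qtnf1 missed the fold threshold (0.90 ± 0.12, adjusted p = 4.58e-04), and C1qtnf7 was not tested. C1qtnf2, C1qtnf9 and C1qtnf12 had log2 fold changes of -0.19, -0.39 and -0.08 and did not pass. Without replicate 2, 3 of 8 tested members rose and 1 fell, beside 12% and 13.9% of all genes tested.

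Of the imprinted growth genes, 3 of 14 rose and 1 fell. Phlda2, which restrains growth of the placenta, was at 66.9, 92.0 and 46.1 CPM at gd10.5 and 8.16, 9.92 and 5.18 CPM at gd14.5 (-3.13 ± 0.33, adjusted p = 0.00326). Rtl1, needed for fetal capillaries of the placenta, was at 8.47, 18.7 and 5.19 and 35.7, 45.9 and 47.6 CPM (1.99 ± 0.44, adjusted p = 0.0163). H19, among the 10 genes with the most reads at both stages, was at 7158, 7534 and 5832 and 6451, 6567 and 6892 CPM and did not pass (-0.05 ± 0.23, adjusted p = 0.880). In the matrix list 2 of 14 rose, and these were Lum (2.58 ± 0.51, adjusted p = 0.0124) and the fibronectin gene Fn1, which went from 983, 3271 and 1145 to 5006, 6467 and 7683 CPM (1.82 ± 0.51, adjusted p = 0.0315). The protease inhibitor A2m, among the 10 genes with the most reads at gd10.5, fell from 11715, 3748 and 14071 to 1973, 2026 and 1290.4 CPM (-2.49 ± 0.52, adjusted p = 0.0145). Without replicate 2, 5 imprinted genes rose and 1 fell, and 2 matrix genes rose and 1 fell, with A2m at -2.87 and Fn1 at 2.58. Over all genes tested with replicate 2, 7.09% were DEGs higher and 9.54% DEGs lower at gd14.5. Counts this small among 14 genes are therefore not read as a trait of either list.

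Markers of other cells of the interface were measured beside these groups. For comparison, 7.09% of all genes tested were DEGs higher and 9.54% DEGs lower at gd14.5. Endothelial genes rose for 2 of 12 members and fell for 2, with Flt1, a receptor of VEGF that trophoblast also makes, at 199, 1040.4 and 149 CPM at gd10.5 and 2106, 2238 and 3082 CPM at gd14.5 (2.42 ± 0.75, adjusted p = 0.0446), and the tight junction gene Cldn5 lower (-1.46 ± 0.37, adjusted p = 0.0241). Smooth muscle genes rose for 3 of 11, among them Lmod1 (2.85 ± 0.50, adjusted p = 0.00912) and Myh11 (2.12 ± 0.34, adjusted p = 0.00733). The other 8 did not pass, and of all 11 log2 fold changes 9 were positive and 2 negative. Des, the member with the most reads, was at 1283, 588 and 1625.5 CPM at gd10.5 and 688, 814 and 425 CPM at gd14.5 (-0.87 ± 0.41, adjusted p = 0.138). The summed level of the list was 1452, 797 and 1798 CPM at gd10.5 and 958, 1143.5 and 725 CPM at gd14.5. Epithelial and gland genes rose for 3 of 10 and fell for 1, and Muc1 rose from 13.7, 47.0 and 12.7 to 99.7, 133 and 129 CPM (2.30 ± 0.52, adjusted p = 0.0173). None of 11 macrophage genes was a DEG (median 0.04), nor was any of 3 tested genes of T and B cells or of 9 mitochondrial transcripts (median -0.21). In the neutrophil list 1 of 5 tested members rose and 2 fell. Mmp8, a collagenase, rose (1.501 ± 0.44, adjusted p = 0.0377), from only 0.0792, 0.319 and 0.184 CPM at gd10.5. S100a8, also made by decidual cells, and the granule gene Mpo fell (-1.93 ± 0.32, adjusted p = 0.00806, and -4.07 ± 0.62, adjusted p = 0.00675). Mpo had at most 2 reads in any KO library of gd14.5, below the detection limit, so its fold change is uncertain. The defining genes Ly6g and Elane had no read in any of the 6 KO libraries. The summed level of the 12 macrophage genes was 509 to 643 CPM at gd10.5 and 898 to 1099 CPM at gd14.5, and most of it was Csf1r and Cd68. Csf1r (0.79 ± 0.17, adjusted p = 0.0143) and Cd68 (0.82 ± 0.10, adjusted p = 0.00398) passed the adjusted p and missed the fold threshold. C1qa, C1qb and C1qc had log2 fold changes of -0.83, -0.77 and -0.75 and passed neither threshold. The summed level of the 10 T and B cell genes was 4.52 to 9.28 CPM over all 6 libraries. Without replicate 2 the endothelial counts were the same, 3 smooth muscle genes rose and 1 fell, 4 epithelial genes rose and 1 fell, 2 macrophage genes fell, 2 neutrophil genes rose and 2 fell, 1 of the T and B cell genes rose and no mitochondrial transcript passed. In that fit 12% of all genes tested were DEGs higher and 13.9% DEGs lower. The part of changed cell numbers in any of these results was not tested.

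The WT libraries repeated most of the KO stage change. In WT, 3952 of 18110 genes (21.8%) were DEGs between the same stages, 1825 (10.1%) higher and 2127 (11.7%) lower. Of the 2936 KO DEGs, 2827 were tested in WT, and 2823 of these (99.9%) had the same sign. WT called 2431 in the same direction, which is 82.8% of the KO DEGs and 61.5% of the WT DEGs, and none in the opposite direction. By direction, 1083 of 1252 rises (86.5%) and 1348 of 1684 falls (80.0%) were repeated. Across 17416 genes tested in both, the log2 fold changes had a Pearson correlation of 0.939, a description across genes, which are not independent replicates. The KO and WT comparisons share no library. Without KO replicate 2, 3396 genes were called in both, 72.1% of the 4712 KO DEGs and 85.9% of the WT DEGs, and the correlation was 0.949.

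**Figure D5:**
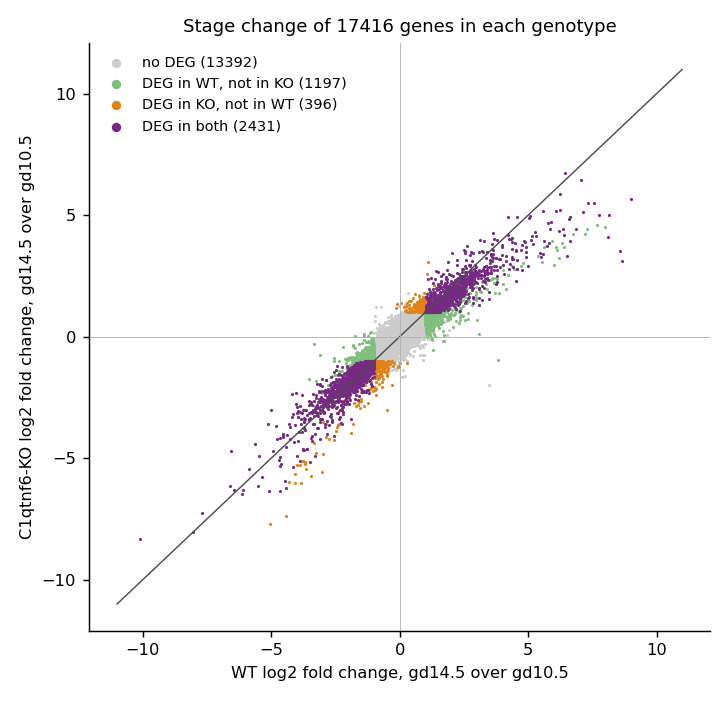
Log2 fold change (gd14.5 over gd10.5) in the 6 KO libraries (y axis) against that in the 6 WT libraries (x axis), with 1 point per gene for 17416 genes, coloured by the genotypes in which the gene was a DEG, and the line of equal change. The 2431 DEGs of both genotypes share their direction, 396 were DEGs in KO and not in WT, and 1197 in WT and not in KO. Of the KO DEGs tested in WT, 33.3% of the rises and 54.1% of the falls were larger in KO.

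Replicate 2 moved the size of the KO changes as well as their number. The slope of the KO log2 fold change on that of WT was 0.856 with it and 1.08 without it. Over the KO DEGs tested in WT the median absolute log2 fold change was 1.58 in KO and 1.62 in WT. Of the 3628 WT DEGs that the KO fit tested, 1197 were not called in KO, although 1184 of them had the same sign. Their median absolute log2 fold change was 0.92 in KO and 1.27 in WT. They were picked for passing in WT and not in KO, which by itself favours a smaller median in KO. Of these 1197, 808 (67.5%) were called without replicate 2.

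The 505 KO DEGs that WT did not repeat were 169 rises and 336 falls. Of these, 109 were not tested in WT, and of the 396 tested ones 392 had the same sign. Among the 396, 211 passed the adjusted p in WT and missed the fold threshold, 68 passed the fold threshold and missed the adjusted p, and 117 missed both. Their median absolute log2 fold change was 1.20 in KO and 0.87 in WT. Their selection as DEGs in KO and not in WT by itself favours the larger median in KO. All 11 KO DEGs of the yolk sac list were among the 505, together with Serpinf2. Serpinf2 was at 31.9, 0.113 and 0.357 CPM in the WT libraries of gd10.5, against 26.4, 4.66 and 37.5 CPM in KO, and its WT log2 fold change was -4.43 ± 1.84 (adjusted p = 0.0711). The high WT library was replicate 1, the same that held the yolk sac genes. Only 4 of the tested KO DEGs had the opposite sign in WT, Arhgef4, Hspa9-ps1, Plekhg4 and Rnf165, picked with their values in view, and none of them passed in WT. Leaving out KO replicate 2, 480 of the 505 were still DEGs in KO.

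Whether the stage change differed between the genotypes was tested directly, as the interaction of genotype and stage over the 12 libraries. No gene passed an adjusted p of 0.05 in edgeR's quasi-likelihood test, of 18612 tested (0% called), and 386 (2.07%) had an unadjusted p under 0.05. With 1 library left out, the latter count ran from 280 of 19055 (WT gd14.5 replicate 3) to 1196 of 18985 (KO gd10.5 replicate 3). It was 978 of 19034 without KO gd10.5 replicate 2. DESeq2 called 3 genes and limma voom none. The 3 genes, Acot10, Dnase1l3 and Ccn1, were also those with the smallest p in edgeR among genes of at least 5 CPM. Acot10, a mitochondrial thioesterase, was at 6.18, 5.78 and 6.52 CPM at gd10.5 and 6.42, 6.47 and 6.70 CPM at gd14.5 in KO. In WT it was at 1.91, 3.20 and 1.78 and 8.195, 6.68 and 8.10 CPM, a difference of the log2 fold changes (KO minus WT) of -1.63 ± 0.28 (unadjusted p = 1.00e-04, interaction over 12 libraries, edgeR). Acot10 was therefore level between the stages in KO, and the KO libraries of gd10.5 stood above the WT libraries of gd10.5. Ccn1, a matrix protein of vessels, was at 136, 140.3 and 176 and 153, 164 and 149 CPM in KO and at 271, 216 and 214 and 129.7, 148 and 136 CPM in WT (0.81 ± 0.17, unadjusted p = 5.60e-04, same edgeR fit). The adjusted p of edgeR was 1.00 for all 3 genes. A p that misses the threshold does not show that the stage changes were alike. Without KO replicate 2 of gd10.5 the interaction called 12 genes, and without WT replicate 1 of gd10.5 it called 56. Without WT replicate 2 of gd10.5 it called 1 gene, Acot10, and without any other library none.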

How the data were processed

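Bulk mRNA-seq of the MFI was analysed in 6 C1qtnf6-KO and 6 WT libraries of gd10.5 and gd14.5. The authors deposited 1 table of raw counts per gene, with 55401 genes and 24 libraries. Per the methods of the study and the submitters' processing notes, they trimmed paired reads with Trim Galore 0.6.4, aligned them to GRCm38 with STAR 2.7.3a and counted them with featureCounts (Subread 2.0.0) at default settings, which ignore strand and count no read that fits more than 1 place. Counts of close paralogs and of overlapping genes are therefore uncertain.

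Libraries were grouped by genotype and stage. KO libraries are numbered as in their descriptions, and their titles number them differently. KO gd14.5 was compared with KO gd10.5, and WT likewise, in R 4.3.3 with edgeR 4.0.16 (quasi-likelihood test, TMM, expression filter with minimum count 10 and total 15). A DEG passed 0.05 after Benjamini-Hochberg adjustment with a change beyond 1 on the log2 scale, and the interaction was called at an adjusted p under 0.05 alone. With 3 libraries per group, an exact permutation test of 1 gene cannot go below p = 0.1, so only fits across all genes were used. CPM used TMM library sizes of the 12 libraries, and a prior count of 2 went into log2 CPM. The detection limit was 3 counts, and limits and intervals cover counting error only. Replicate pairs differed by a chi-square per degree of freedom of 9.30 to 169 over 12 pairs, so each library was counted as 1 sample.

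The named genes were C1qtnf6, per direction the 10 DEGs with the largest change among genes of at least 20 CPM in the higher stage whose stages did not overlap (clone names left out), up to 4 members per list and direction, all NK effectors, globins and C1q/TNF-related genes, the 10 genes with the highest mean CPM per stage, and up to 10 genes with the smallest interaction p and at least 5 CPM. Some genes that the rule names are not reported here. Apob, Alb, Itga2, Il2rb, Klrk1, Prl2c2 and Prl7a1 were picked with their values in view. The comparison, the lists and the rules were chosen with earlier results of these data known. Lists were written from general knowledge, and no set test was run. Alternatives were DESeq2 1.42.0, limma 3.58.1 voom with quality weights, RLE size factors, other filters and thresholds, joint fits, a replicate block, Y-linked expression as a covariate and leaving out each library. The fits were tested on simulated data with seed 20.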

Additional observations from a re-analysis of the deposited data

Results flagged for a closer look

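Leaving out replicate 2 of the gd10.5 KO libraries, 12 genes differed in their stage change between KO and WT (edgeR interaction, adjusted p under 0.05), all with the larger rise in KO. They were the pregnancy-specific glycoproteins Psg17, Psg18, Psg25 and Psg27, the related Ceacam5, Ceacam13 and Ceacam14, the cathepsins Cts3 and Ctsm, Prl7a2, Taf7l and Gm5155. Psg27 was at 19.52, 1088 and 23.8 CPM in the gd10.5 KO libraries, where the second value is replicate 2, and at 71.9, 64.6 and 65.0 CPM in WT. At gd14.5 it was at 5089.7, 4973 and 6503 CPM in KO and 4705, 5749.5 and 5565 CPM in WT. The KO libraries left were thus below WT at gd10.5, and replicate 2 was far above.

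Leaving out replicate 1 of the gd10.5 WT libraries, 56 genes differed in the same test, all with the lower log2 fold change in KO. In all 56, that replicate was the highest of the 3 WT libraries of gd10.5, and in 40 by more than 10 times. Of the 56, 10 were in the yolk sac list. Afp, alpha-fetoprotein of the yolk sac, was at 2366, 6.995 and 9.94 CPM in the gd10.5 WT libraries and at 1095, 909 and 2014 CPM in KO, and the difference of its log2 fold changes was -8.06. At gd14.5 it was at 38.6, 80.7 and 69.3 CPM in WT and 40.3, 33.9 and 37.6 CPM in KO, so it went down in KO and up in the WT libraries left. Afp, Psg27 and the other genes named here were chosen after their values had been seen. Each call rests on which single library of gd10.5 is left out, and neither set of genes passed with all 12 libraries.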

How the results depend on the processing

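The number of KO DEGs rested on single libraries: leaving out 1 KO library at a time gave 1199 to 4712 DEGs, against 2936 with all 6. It was 1475, 4712 and 2034 without gd10.5 replicates 1, 2 and 3, and 1726, 1199 and 1245 without gd14.5 replicates 1, 2 and 3, so only leaving out gd10.5 replicate 3 kept it within 1.5 times. Without a fold threshold 6479 genes passed, and a test against a log2 fold change of 1 (glmTreat) left 315. Other alternatives gave 2155 to 4043. The share of KO DEGs repeated in WT was 72.1% to 83.8% with 1 library left out and 75.8% to 89.4% under the others. WT DEGs ranged from 3758 to 4427 with 1 WT library left out. Alternatives applied to the WT fit, and the omission of WT libraries there, were added after seeing the data.

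The interaction called 3 genes with DESeq2 and 0 with the other tools, and 0 to 56 with 1 library left out: 12 without KO gd10.5 replicate 2, 56 without WT gd10.5 replicate 1, 1 (Acot10) without WT gd10.5 replicate 2 and 0 without any other. With Y-linked expression as a covariate it called 0 genes, with 343 at an unadjusted p under 0.05. The log2 difference (KO minus WT) of 12 genes turned from negative and not called to positive and called without KO gd10.5 replicate 2, and over the fits with 1 library left out these spanned Ceacam13 (-2.35 to 1.24), Ceacam14 (-3.61 to 1.71), Ceacam5 (-2.64 to 1.68), Cts3 (-3.10 to 1.58), Ctsm (-3.56 to 1.85), Gm5155 (-3.07 to 1.94), Prl7a2 (-3.68 to 1.85), Psg17 (-3.31 to 1.70), Psg18 (-3.13 to 1.51), Psg25 (-2.51 to 2.03), Psg27 (-3.03 to 1.69) and Taf7l (-2.26 to 1.68), where the higher value is that without this library. The cause was not tested.

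With the replicate number as a block, 2155 KO DEGs were called, 84.1% of them repeated in WT, WT had 3927 DEGs and the interaction 0. Same-numbered libraries did not deviate together (correlations of 0.0856, -0.141 and -0.255 in KO and -0.160, -0.106 and 0.0214 in WT), and 1 library of 6 correlated best with its own number. With 3 libraries per group this check is weak and cannot exclude a pairing by number. For selected single genes of the KO fit, each gene under each alternative was 1 result. Under the alternatives that use all libraries, 816 results kept their status, called or not called, 33 gained a call and 20 lost it. With 1 library left out 479 kept their status, 9 gained a call, 178 lost it and 0 turned direction. Depth limits the genes near 3 reads, where a fold change is uncertain.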
